A study of Homo sapiens with 4 samples.

Results

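The zinc finger genes of chromosome 19 were examined in MHCC97L, an established human hepatocellular carcinoma cell line, with 3 histone marks mapped by chromatin immunoprecipitation and sequencing. Members were all protein-coding genes of that chromosome whose symbol is ZNF, a number and at most 1 further letter. The rule found 246 genes among 19974 protein-coding genes of chromosomes 1 to 22 and X, and 263 genes with such symbols lay on other chromosomes. The set was chosen by its marks, from earlier results on the 3 lists, and above all by its lack of 1 of them. The cells were untreated and were cultured at 37 °C under 5% CO2, with 10% fetal bovine serum in the medium. One library each (n = 1) was made for trimethylation of histone H3 at lysine 4 (H3K4me3), acetylation at lysine 27 (H3K27ac) and monomethylation at lysine 4 (H3K4me1), and an input library was not analysed here. With 1 library per mark there is no replicate error, no test between gene groups was made, and the 95% Wilson intervals given cover counting error over genes only.

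Most of these genes encode C2H2 zinc finger proteins, many with a KRAB domain, which bind DNA through arrays of fingers and recruit the co-repressor TRIM28 and the histone methyltransferase SETDB1. Their best known task is the silencing of retroelements, and the family grew by repeated local duplication, so that its genes stand in clusters along the chromosome. H3K4me3 marks active or poised transcription starts, H3K27ac marks active starts and enhancers, and H3K4me1 marks enhancers and the flanks of active starts.

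The deposited lists hold 46078 H3K4me3, 70028 H3K27ac and 86366 H3K4me1 peak summits on chromosomes 1 to 22 and X, of which 2321, 2853 and 2677 lay on chromosome 19. Each summit is a single position with a score, the authors' −log10 p-value or q-value. Which of these it is remains unknown. The lists carry no read counts, so the depth is unknown, and scores are ranked only within a list. Among hepatocyte genes used as a check of the cell line, HNF4A, KRT8 and KRT18 carried H3K4me3 and H3K27ac at a boundary, ALB and TTR had no summit, AFP was marked only inside the gene, and APOA1 had a single weak H3K4me3 summit (score 1.80). The T cell gene CD3D and the fibroblast gene COL1A1 had no summit, whereas the leukocyte gene PTPRC had summits of all 3 marks inside the gene. The endothelial gene PECAM1 had all 3 marks in the gene and, at a boundary, H3K27ac (43.9) and H3K4me1 (6.84).

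H3K4me3 was found at a majority of the members, mostly together with H3K27ac, and H3K4me1 at next to none. Of the 246 genes, 142 (57.7%, 95% interval 51.5 to 63.7) had an H3K4me3 summit within 1000 bp of either gene boundary, against a background of 56.8% of all protein-coding genes. H3K27ac was found at 121 members (49.2%), against 54.1% of all genes. Both marks lay at the same boundary of 119 members (48.4%, 42.2 to 54.6), against 47.4% of all genes. All 3 counts were near the background. The other 1205 protein-coding genes of chromosome 19 had H3K4me3 in 55.8%, H3K27ac in 52.7%, both marks in 46.5% and no mark in 37.3%. The zinc finger genes of other chromosomes were marked more often than those of chromosome 19, with H3K4me3 in 72.6% and both marks in 67.3%. No mark was found at a boundary of 102 members (41.5%), against 35.2% of all genes and 22.1% of the zinc finger genes elsewhere. Over the whole gene with 1000 bp on each side, 165 members had H3K4me3 (67.1%, against 69.0% of all genes), 141 had H3K27ac (57.3%, against 64.5%) and 81 had no mark (32.9%, against 25.7%).

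**Figure D1:**
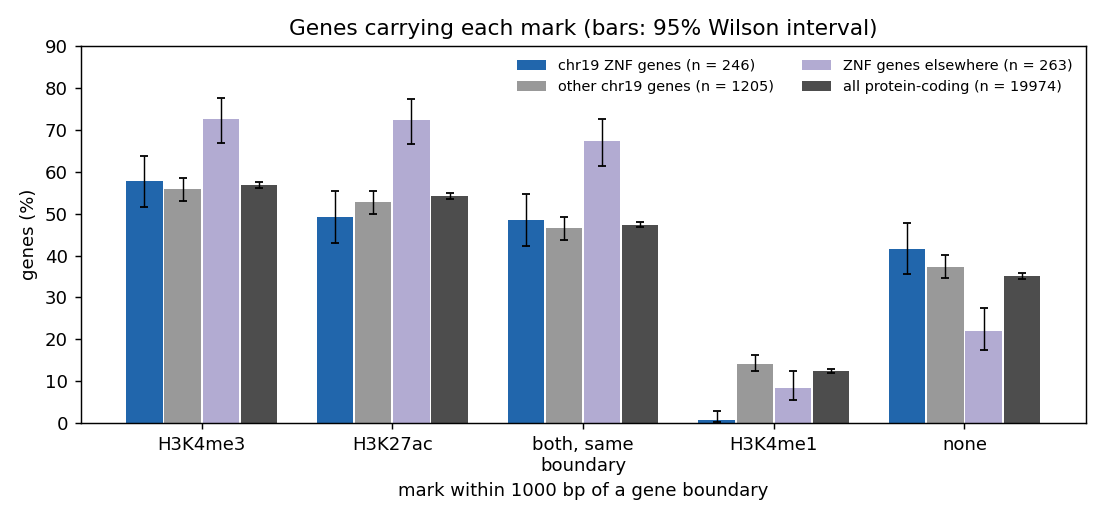
Share of genes (%, vertical axis, from 0) with H3K4me3, H3K27ac, both at the same boundary, H3K4me1 or no mark within 1000 bp of a gene boundary, for 4 gene groups, with 95% Wilson intervals for counting error. The chromosome 19 zinc finger genes stand near all genes for the first 3 classes and at 0.813% for H3K4me1.

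The near absence of H3K4me1 was one of the properties for which these genes were chosen, and its values are given as a description. H3K4me1 lay within 1000 bp of a boundary of 2 members (0.813%, 0.223 to 2.92), against 12.4% of all genes, 14.2% of the other genes of chromosome 19 and 8.37% of zinc finger genes elsewhere. Counted over the whole gene with 1000 bp on each side, 11 members had a summit (4.47%, 2.51 to 7.83), against 40.4% of all genes. At a boundary, a window of 500 bp found 1 member against 7.31% of all genes, and one of 2500 bp found 8 against 24.9%. With a score of at least 10 there was none, against 1.13% of all genes. The list of H3K4me1 summits was the longest of the 3, and 2677 of its summits lay on this chromosome. The nearest H3K4me1 summit lay a median of 284718 bp from a member's boundary, with quartiles of 91150 and 484400 bp. For the other genes of the chromosome the median was 8219 bp, and for zinc finger genes elsewhere it was 47541 bp. In all, 199 members (80.9%) had no H3K4me1 summit within 50000 bp of a boundary, against 20.1% of the other genes of the chromosome.

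Marked starts of members were also rarely flanked by H3K4me1. The RefSeq promoter table placed 268 transcription starts in 216 of the members, and 168 of these starts had H3K4me3 within 1000 bp. By gene, 142 of the 216 (65.7%) had H3K4me3 at a start, against 62.0% of all genes with a listed start, 123 (56.9%) had both marks, against 53.1%, and 74 (34.3%) had none, against 32.7%. In the other genes of the chromosome these shares were 57.3%, 48.7% and 38.0%. An H3K4me1 summit lay within 2500 bp of 3.57% (1.65 to 7.57) of these 168 starts and within 5000 bp of 4.76% (2.43 to 9.11). At 694 H3K4me3-marked start positions of other genes of the chromosome the shares were 29.1% and 45.2%, and at 203 of zinc finger genes elsewhere they were 11.8% and 23.6%. Inside the genes, away from both ends, members held 24 H3K4me1 summits in 6.57 Mb, or 3.65 per Mb, while the other genes of the chromosome held 72.4 per Mb. The same comparison gave 8.68 against 51.2 per Mb for H3K27ac and 14.6 against 37.9 per Mb for H3K4me3.

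**Figure D2:**
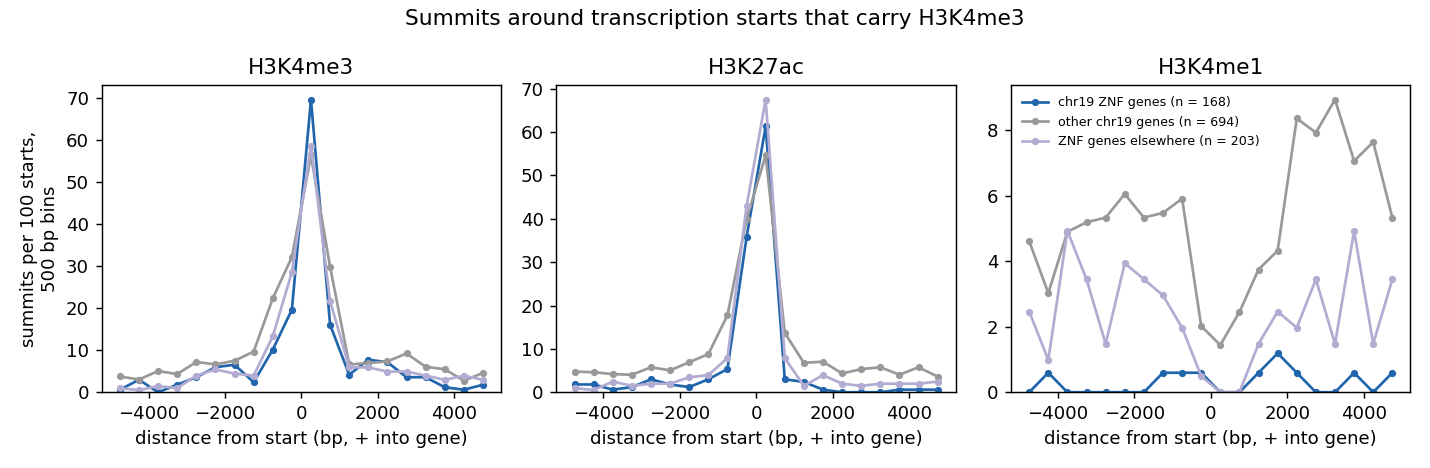
Summits per 100 transcription starts in 500 bp bins, by distance from the start (bp, positive into the gene), around starts with H3K4me3, for each mark. Each start position was counted once, and vertical axes differ between marks. H3K4me3 and H3K27ac peak just inside the start in all 3 gene groups, while the H3K4me1 line of the chromosome 19 zinc finger genes stays near 0 across the 10 kb.

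The 11 members with H3K4me1 in the gene all carried H3K4me3 and H3K27ac as well. ZNF296 (chr19:45071500-45076478) had H3K4me1 at a boundary with a score of 5.81, beside H3K4me3 of 42.0 and H3K27ac of 4.58, and its boundary windows overlap those of CLASRP and GEMIN7. ZNF526 (chr19:42220312-42228201) had H3K4me1 at a boundary with 3.36, beside H3K4me3 of 85.1 and H3K27ac of 34.9, and its boundary windows overlap those of DEDD2 and GSK3A. Both therefore stand beside genes that encode no zinc finger protein of this family, and which gene the summit belongs to was not tested. Inside the gene, the highest H3K4me1 scores were 8.82 in ZNF444 and 8.07 in ZNF507, followed by 7.19 in ZNF541. ZNF541 held 7 H3K4me1 summits with no mark at either boundary. ZNF507, which held 5 summits of each mark, and ZNF787, with 4 of each, had the most summits of all members. The other members with H3K4me1 were ZNF787 (4.01), ZNF114 (2.99), ZNF792 (2.67), ZNF574 (2.28), ZNF846 (2.01) and ZNF584 (1.69). Across the 11 genes the median score was 3.36, and no score reached 10.

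H3K27ac scores of marked members stood lower in their list than H3K4me3 scores did in theirs. In the 119 members with both marks, the median H3K4me3 score was 57.0 and the median H3K27ac score was 21.3. All protein-coding genes with both marks had 57.2 and 30.2, the other genes of the chromosome 54.4 and 31.8, and zinc finger genes elsewhere 59.3 and 29.8. The H3K27ac score was 50 or more in 10.9% of these members, against 24.5% of all genes with both marks, 26.4% of the others on the chromosome and 26.6% of zinc finger genes elsewhere. Ranked among all marked protein-coding genes of each list, the members stood at a median percentile of 57.0 for H3K4me3 and 34.4 for H3K27ac. The percentile was higher for H3K4me3 in 87 of the 119 genes, a count that was not made for the other gene groups. Of the 121 members with H3K27ac, 13 stood above percentile 75 of its list and 45 below percentile 25, while 36 of the 142 with H3K4me3 stood above percentile 75 of that list and 26 below percentile 25.

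Members stood below all genes in every range of the H3K4me3 score. Between 20 and 40 the median H3K27ac score was 13.3 in members and 18.0 in all genes. Among genes with H3K4me3 between 40 and 60 the median H3K27ac score was 20.6 in members and 26.0 in all genes. Between 60 and 80 it was 25.6 against 36.0, and at 80 or more it was 24.5 in 14 members against 49.8 in all genes and 60.7 in the others of the chromosome. Both marks were nevertheless found together at all 40 members with an H3K4me3 score of 60 to 80 and at all 14 above it. These counts were near the 97.8% and 98.1% of all genes in the same ranges. Below an H3K4me3 score of 20 only 4 of 18 members (22.2%) had H3K27ac at the same boundary, against 38.1% of all genes in that range, and the median H3K27ac score of those 4 was 5.48 against 17.4.

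**Figure D3:**
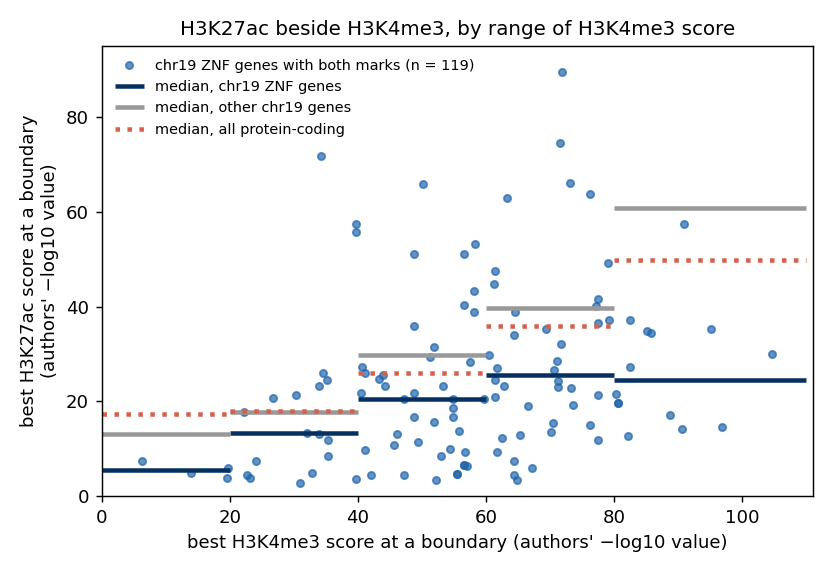
Best H3K27ac score against best H3K4me3 score (authors' −log10 values) of the 119 chromosome 19 zinc finger genes with both marks at the same boundary. Points are genes, and bars are median H3K27ac scores of 3 gene groups within ranges of the H3K4me3 score; the bar for members levels off near 25 while the other 2 rise.

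The highest H3K4me3 score among the members was 105 at ZNF581 (chr19:55635003-55645623), where H3K27ac had 30.1, and which shares that boundary window with CCDC106. At the listed start of ZNF581 the score was 95.2, without H3K27ac within 1000 bp. ZNF841 (chr19:52058490-52095765) followed with 96.8 beside an H3K27ac score of only 14.7, and its summit lay 917 bp from the boundary, the farthest within the window. ZNF580 had 95.2 and 35.4, but its 95.2 is that same summit, at the downstream end of ZNF580 and within 1000 bp of the start of ZNF581. At the starts of ZNF580 itself H3K4me3 stood at 43.6. ZNF260, a Krüppel-type factor known from heart muscle, had 90.9 and 57.4. ZNF765 had 90.5 and 14.3, and ZNF224, a KRAB repressor, had 88.7 and 17.2. ZNF616 (85.8 and 34.4), ZNF526 (85.1 and 34.9), ZNF227 (82.5 and 27.3) and ZNF480 (82.5 and 37.2) completed the leading 10. Of these, ZNF224 shares a boundary window with ZNF225, ZNF480 with ZNF766, and ZNF765 with the readthrough gene ZNF765-ZNF761. The 5 members with the highest H3K27ac scores are given next.

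Those 5 were led by ZNF576 (chr19:43596392-43601157), with an H3K27ac score of 89.6 beside H3K4me3 of 71.8, in a window shared with IRGQ. ZNF274, which brings SETDB1 to the last exons of other zinc finger genes, had 74.6 beside 71.6. ZNF888 had 71.7 beside an H3K4me3 score of only 34.2, in a window shared with ZNF320. ZNF146, a protein made almost wholly of zinc fingers, had 66.0 beside 73.1, and ZNF524 had 66.0 beside 50.2, in a window shared with FIZ1. H3K4me3 without H3K27ac was seen at 23 members (9.35%), close to the 9.42% of all genes, with a median score of 14.0. ZNF416 (58.1) had the highest score of these, followed by ZNF585A (38.1), ZNF554 (35.3), ZNF221 (33.4) and ZNF284 (31.8). The reverse state, H3K27ac without H3K4me3, was found at 2 members (0.813%), against 6.23% of all genes and 4.94% of zinc finger genes elsewhere. One was ZNF460 (H3K27ac 49.8), which had H3K4me3 1115 bp from its boundary, and the other ZNF575 (1.88). Counted over the whole gene, none of the 246 members had H3K27ac without H3K4me3, which by the Wilson interval allows a share of up to 1.54%. The share was 3.29% in all genes and 1.52% in zinc finger genes elsewhere, which lies within the interval of the members.

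At the edge of the window, besides ZNF841, ZNF524 (904 bp) and ZNF44 (859 bp) were the last to be included, with H3K4me3 scores of 50.2 and 6.43. The nearest outside were ZNF460, ZNF114 (1495 bp) and ZNF358 (1732 bp). A further 23 members had H3K4me3 inside the gene but at no boundary, with a median score of 56.5, among them ZNF574 (97.2), ZNF420 (90.5) and ZNF225 (88.2). Of the 20 of these with a listed start, 17 had the summit within 1000 bp of a start that was not a gene boundary.

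H3K4me3 stood at the upstream end of the genes. Among the 216 members with a known strand, 120 had it within 1000 bp of the upstream end only, 1 at the downstream end only and 6 at both. At 4 of the 7 marked downstream ends the start of another gene lay within 1000 bp, such as ZNF446 behind ZNF324. H3K4me3 summits near a start lay a median of 142 bp into the gene, and 74.2% of them were downstream of the start. H3K27ac summits lay at a median of 125 bp, with 61.2% downstream. Neighbouring members can share a summit: 142 marked members drew on 167 distinct H3K4me3 summits, and 7 of these summits served 14 members in pairs. The pairs were ZNF490 with ZNF791 (56.5), ZNF529 with ZNF382 (8.80), ZNF461 with ZNF567 (80.7), ZNF790 with ZNF345 (55.4), ZNF766 with ZNF480 (37.7), ZNF880 with ZNF528 (7.51) and ZNF324 with ZNF446 (35.2). These pairs are not separate measurements.

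Marked and unmarked members were arranged in blocks along the chromosome. Of 83 members on the short arm, 37 had H3K4me3 at a boundary, 31 (37.3%, 27.7 to 48.1) had both marks and 42 (50.6%, 40.1 to 61.1) had none of the 3 marks over the whole gene. Of 163 members on the long arm, 105 had H3K4me3, 88 (54.0%, 46.3 to 61.5) had both marks and 39 (23.9%, 18.0 to 31.0) had none. The median H3K4me3 score of marked members was 47.2 on the short arm and 58.3 on the long arm. No short arm member scored above the 62.9 of ZNF714, whereas 45 of the 105 marked long arm members did. The largest short arm cluster, next to the centromere, held 24 of the 42 unmarked short arm members: without its 37 genes, 18 of the remaining 46 short arm members (39.1%, 26.4 to 53.5) had no summit and 20 (43.5%) had both marks.

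**Figure D4:**
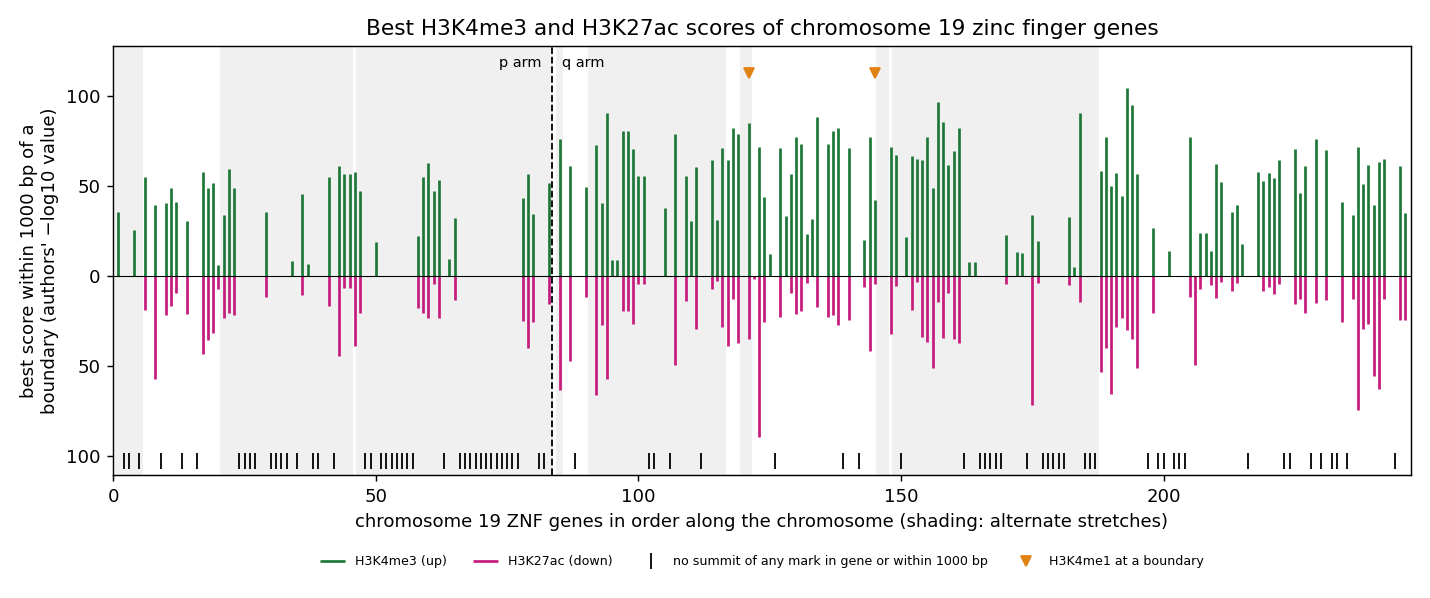
Best H3K4me3 score (up) and H3K27ac score (down) within 1000 bp of a boundary for each of the 246 members in chromosome order (horizontal axis, rank). Ticks at the bottom mark members with no summit in the gene, triangles the 2 with H3K4me1 at a boundary, shading alternate stretches and the dashed line the change of arm. Ticks crowd together left of the arm change and the tallest bars stand on the long arm.

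Members separated by less than 1000000 bp were joined into stretches, of which 9 held at least 5 members. From ZNF554 to ZNF77 (2.82 to 2.94 Mb), none of 5 members had both marks, with ZNF554 (H3K4me3 35.3) the highest and ZNF555 unmarked. From ZNF557 to ZNF846 (7.07 to 9.79 Mb), 10 of 15 had both marks, led by ZNF121 (58.1), while ZNF558 was the foremost gene, the lowest in coordinate, with no summit. From ZNF653 to ZNF791 (11.5 to 12.6 Mb), 9 of 25 had both marks and 12 had no summit, with ZNF564 (61.3) the highest and ZNF441 the foremost unmarked gene. From ZNF101 to ZNF254 (19.7 to 24.1 Mb), the group expanded in primates next to the centromere, 11 of 37 had both marks and 24 (64.9%, 48.8 to 78.2) had no summit, ZNF14 being the foremost of these. Those 4.46 Mb held 29 H3K4me3 summits, 19 H3K27ac summits and no H3K4me1 summit. On the long arm, 2 of 5 members had both marks from ZNF302 to ZNF792 (34.7 to 35.0 Mb), where ZNF181 had 61.5 and ZNF599 was unmarked. From ZNF565 to ZNF573 (36.2 to 37.8 Mb), 14 of 26 had both marks and 4 had no summit, among them ZNF829 and its neighbour ZNF568, and this stretch also held no H3K4me1 summit.

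From ZNF575 to ZNF296 (43.5 to 45.1 Mb), 15 of 24 members had both marks and 3, ZNF404 among them, had no summit. That stretch held 28 other protein-coding genes and 140 H3K4me1 summits, yet of its zinc finger genes only ZNF296 carried one. From ZNF175 to ZNF331 (51.6 to 53.6 Mb), 16 of 39 members had both marks and 16 had no summit, the foremost being ZNF577, which shares a window with ZNF649. From ZNF628 to ZNF446 (55.5 to 58.5 Mb), the longest row of members, 35 of 59 had both marks and 15 had no summit, ZNF582 being the foremost of them. Over the stretches with at least 5 members, H3K4me1 summits stood at 14.9 per Mb against 63.9 per Mb elsewhere on the chromosome. H3K27ac summits stood at 23.7 against 65.1 per Mb, and H3K4me3 summits at 27.6 against 50.2 per Mb. Stretches with fewer members were counted as elsewhere.

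Some blocks held no summit at all. The 12 neighbours from ZNF100 to ZNF730, over 1424 kb (chr19:21722771-23147221), were without summits of all 3 marks over their whole span. So were the 7 from ZNF93 to ZNF66 over 909 kb (chr19:19900946-20809995). On the long arm the same held for 5 genes from ZNF534 to ZNF83 over 261 kb and for 5 from ZNF160 to ZNF677 over 188 kb. Other blocks were marked throughout. The 10 genes from ZNF613 to ZNF480 all had both marks at a boundary, over 398 kb with 20 H3K4me3, 13 H3K27ac and no H3K4me1 summits. The 12 genes from ZNF45 to ZNF227 all had H3K4me3 in the gene, over 325 kb with 19 H3K4me3, 15 H3K27ac and no H3K4me1 summits. Between the unmarked blocks of the short arm, the 5 genes from ZNF85 to ZNF708 all had both marks within 406 kb.

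Of 16 members listed for a described role or as members of the group next to the centromere, 9 had H3K4me3 at a boundary, 7 had both marks and 7 had no summit in the gene. The shares of all genes were 56.8%, 47.4% and 25.7%, and those of all 246 members 57.7%, 48.4% and 32.9%. In the group next to the centromere, on which the list partly drew, 24 of 37 had no summit. ZNF91, which silences SVA and some LINE-1 retroelements, had H3K4me3 of 56.5 and H3K27ac of 40.3. ZNF93, which acts on LINE-1 elements, had no summit. ZNF587 (76.2 and 15.1) and ZNF417 (70.2 and 13.5), which act on HERV-K proviruses, were both marked strongly by H3K4me3 and weakly by H3K27ac. ZNF85 had 22.3 and 17.9, and ZNF431 had 47.2 and 4.57. ZNF382 (8.80) and ZNF649 (21.5) had H3K4me3 alone, the former from the summit shared with ZNF529. ZNF331, an imprinted gene, had no mark at any of its 6 listed starts, and ZNF808, needed for human pancreas development, also had none. ZNF43, ZNF208, ZNF534 and ZNF728 were likewise without a summit. Of these genes, ZNF417 shares a boundary window with ZNF814, ZNF808 with ZNF701 and ZNF534 with ZNF578.

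The genes of 16 proteins through which KRAB zinc finger proteins act were examined beside the members. All 16 had H3K4me3 and H3K27ac in the gene, where 61.2% of all genes did, and 11 had both at a boundary, where 47.4% of all genes did. TRIM28, which lies on chromosome 19 beyond the last cluster, had 40.6 for H3K4me3 and 52.6 for H3K27ac at its boundaries, and a stronger H3K4me3 summit of 94.3 further inside. SETDB1 had 105 and 81.4, and CBX5, which encodes the heterochromatin protein HP1 alpha, had 119 and 112. H3K4me1 lay in 7 of the 16, near the 40.4% of all genes.

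Promoter sequences were compared next, 300 bases per start, from 250 before it to 50 after it. The stretches printed here are the 200 bases before the start (RefSeq, GRCh38.p14), 5′ to 3′ on the gene's strand, with each CG dinucleotide in capitals. They were chosen as the extremes of mark state and CG content among genes with 1 listed start. The first set is strongly marked with both marks: ZNF260 (chr19:36528272-36528471, minus strand) and ZNF765 (chr19:53394949-53395148, plus strand), with 20 and 25 CG in their 300 bases.
ZNF260: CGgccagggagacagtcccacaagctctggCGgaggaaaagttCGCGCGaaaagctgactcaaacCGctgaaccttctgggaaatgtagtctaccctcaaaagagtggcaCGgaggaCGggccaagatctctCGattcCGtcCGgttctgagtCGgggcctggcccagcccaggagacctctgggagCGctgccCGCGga
ZNF765: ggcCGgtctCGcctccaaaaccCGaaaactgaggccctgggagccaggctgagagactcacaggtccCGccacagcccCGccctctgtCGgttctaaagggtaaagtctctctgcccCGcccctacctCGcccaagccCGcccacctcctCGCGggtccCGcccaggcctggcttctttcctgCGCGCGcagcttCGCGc
The second set carried both marks with only 9 CG each, and both genes lie in the cluster next to the centromere: ZNF708 (chr19:21329411-21329610, minus strand; H3K4me3 53.4 and H3K27ac 23.2) and ZNF429 (chr19:21505402-21505601, plus strand; 32.1 and 13.3).
ZNF708: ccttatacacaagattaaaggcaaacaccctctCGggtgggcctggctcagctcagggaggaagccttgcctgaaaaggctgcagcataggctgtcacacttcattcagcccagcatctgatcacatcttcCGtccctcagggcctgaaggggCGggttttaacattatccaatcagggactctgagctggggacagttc
ZNF429: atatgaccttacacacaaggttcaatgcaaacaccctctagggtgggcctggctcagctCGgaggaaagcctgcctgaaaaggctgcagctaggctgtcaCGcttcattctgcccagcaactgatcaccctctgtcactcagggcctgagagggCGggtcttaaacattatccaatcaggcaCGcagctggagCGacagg
The third set had many CG and no summit in the gene: ZNF667 (chr19:56477346-56477545, minus strand) with 42 and ZNF71 (chr19:56595102-56595301, plus strand) with 31. ZNF404 (chr19:43883965-43884164, minus strand), also unmarked, stands for the CG-poor end with 2.
ZNF667: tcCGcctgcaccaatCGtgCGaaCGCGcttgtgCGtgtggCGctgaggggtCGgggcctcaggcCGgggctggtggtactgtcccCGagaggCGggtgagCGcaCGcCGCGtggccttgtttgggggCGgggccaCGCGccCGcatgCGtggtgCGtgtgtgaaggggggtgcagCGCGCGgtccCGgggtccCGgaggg
ZNF71: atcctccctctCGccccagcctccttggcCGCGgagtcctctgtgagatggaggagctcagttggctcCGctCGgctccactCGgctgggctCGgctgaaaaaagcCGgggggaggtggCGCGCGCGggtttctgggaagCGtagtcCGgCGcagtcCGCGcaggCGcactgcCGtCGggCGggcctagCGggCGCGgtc
ZNF404: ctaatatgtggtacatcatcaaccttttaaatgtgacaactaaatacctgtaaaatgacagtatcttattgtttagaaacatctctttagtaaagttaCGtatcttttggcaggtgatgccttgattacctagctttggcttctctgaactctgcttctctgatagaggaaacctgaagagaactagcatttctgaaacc

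Marked and unmarked starts differed less in CG content among members than among other genes. Members with no mark at a start had a median of 17 CG in 300 bases and those with both marks 21.5. In all protein-coding genes the medians were 6 and 27, in the other genes of the chromosome 9 and 28, and in zinc finger genes elsewhere 10 and 26. Of starts with 10 to 14 CG, 55.1% (27 of 49, 41.3 to 68.1) of those of members had H3K4me3. The share was 46.4% over all genes and 36.8% over the others of the chromosome. It was higher, 75% (15 of 20, 53.1 to 88.8), in zinc finger genes elsewhere. Of starts with 30 CG or more, 65.8% (25 of 38, 49.9 to 78.8) of those of members had H3K4me3, against 82.5% (78.2 to 86.1) of the others of the chromosome and 79.5% of all genes. In zinc finger genes elsewhere it was 83.9% (74.8 to 90.2). Of starts with 25 to 29 CG, 64.3% (27 of 42) of those of members had H3K4me3, against 78.1% of all genes. Members with a start of at least 25 CG and no summit in the gene numbered 22. Of these, 19 lay on the long arm, with 10 between ZNF175 and ZNF331 and 7 between ZNF628 and ZNF446. Member starts there were richer in CG, with a median of 23 in both stretches against 10 in the cluster next to the centromere. The share of such genes among all members with CG-rich starts was not counted by arm. Besides ZNF667 and ZNF71 the 22 genes included ZNF331, ZNF808, ZNF577, ZNF582, ZNF677, ZNF160, ZNF135 and ZNF256. DNA methylation and H3K9me3 were not measured.

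**Figure D5:**
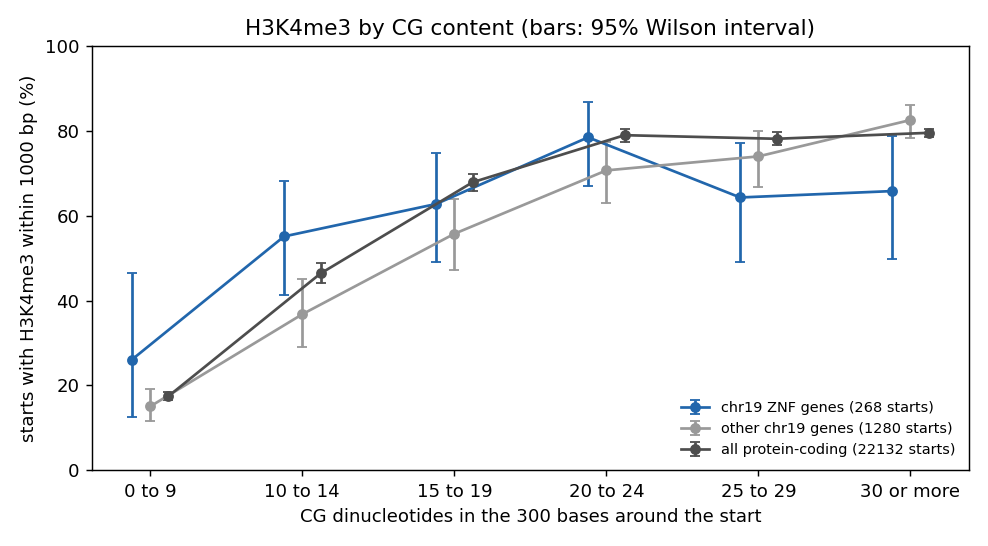
Share of transcription starts with an H3K4me3 summit within 1000 bp (%, vertical axis) by the number of CG dinucleotides in the 300 bases around the start, for 3 gene groups, with 95% Wilson intervals for counting error. The line for chromosome 19 zinc finger genes rises to 78.5% at 20 to 24 CG and stands at 65.8% at 30 or more, where the others of the chromosome reach 82.5%.

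In the cluster next to the centromere, promoters with and without marks were closely related in sequence. Aligned over 300 bases, pairs among its 28 members with 1 listed start had a median identity of 78.7%. The median was 73.3% for pairs with H3K4me3 at both starts, 79.8% for pairs with it at neither and 78.0% for mixed pairs. The most alike mixed pair was the unmarked ZNF208 (chr19:22010944-22011143, minus strand) and the marked ZNF91 (chr19:23395472-23395671, minus strand), identical at 262 of 300 bases (87.3%). ZNF91 stood at 56.5 for H3K4me3 and 40.3 for H3K27ac, and the nearest H3K4me3 summit to ZNF208 lay 334961 bp away. Their 200 bases before the start are shown for comparison, with CG in capitals.
ZNF208: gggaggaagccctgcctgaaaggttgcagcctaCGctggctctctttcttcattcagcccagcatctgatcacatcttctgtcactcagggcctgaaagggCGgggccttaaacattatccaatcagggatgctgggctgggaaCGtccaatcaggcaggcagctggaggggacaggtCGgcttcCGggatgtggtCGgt
ZNF91: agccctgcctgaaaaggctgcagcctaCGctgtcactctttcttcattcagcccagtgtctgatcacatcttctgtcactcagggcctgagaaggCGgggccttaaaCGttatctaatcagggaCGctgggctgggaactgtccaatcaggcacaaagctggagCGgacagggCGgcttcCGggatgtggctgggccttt
Near-identical copies can leave short reads without a unique place. Among the 300-base windows of this cluster, 1 of 11 starts with H3K4me3 and 0 of 19 without it shared a run of 50 identical bases with a promoter window of another gene. Over all members it was 5 of 168 and 4 of 100. These counts cover promoter windows only, and the part of read placement in the unmarked blocks was not tested.

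A sequence that is rare in other promoters recurred in those of the members. The letters ACTACANNNCCCAG, searched on both strands, form the core of the site recognised by the activator ZNF143. They were found in 48 of 268 start windows of members (17.9%, 13.8 to 22.9), against 1.48% of the other genes of the chromosome, 5.56% of zinc finger genes elsewhere and 1.64% of all protein-coding genes. A match is a description of the letters, and binding was not measured. Examples from marked members are shown first, with 10 bases to each side and the match in capitals. On the other strand the match reads CTGGGNNNTGTAGT. They come from ZNF260 (chr19:36528372-36528405, minus strand), ZNF420 (chr19:37078330-37078363, plus strand), ZNF224 (chr19:44094252-44094285, plus strand), ZNF587 (chr19:57849732-57849765, plus strand), ZNF565 (chr19:36214704-36214737, minus strand) and ZNF180 (chr19:44500552-44500585, minus strand).
ZNF260: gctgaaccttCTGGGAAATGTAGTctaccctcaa
ZNF420: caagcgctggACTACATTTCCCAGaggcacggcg
ZNF224: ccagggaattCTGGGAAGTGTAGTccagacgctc
ZNF587: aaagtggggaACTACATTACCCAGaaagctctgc
ZNF565: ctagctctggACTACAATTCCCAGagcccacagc
ZNF180: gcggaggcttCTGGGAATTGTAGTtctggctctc
The same letters stood before starts with no summit in the gene, shown here for ZNF599 (chr19:34773295-34773328, minus strand), ZNF829 (chr19:36916079-36916112, minus strand), ZNF331 (chr19:53520878-53520911, plus strand), ZNF418 (chr19:57935478-57935511, minus strand) and ZNF835 (chr19:56671867-56671900, minus strand).
ZNF599: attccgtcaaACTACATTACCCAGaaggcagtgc
ZNF829: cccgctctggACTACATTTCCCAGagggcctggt
ZNF331: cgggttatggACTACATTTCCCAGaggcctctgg
ZNF418: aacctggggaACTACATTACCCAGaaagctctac
ZNF835: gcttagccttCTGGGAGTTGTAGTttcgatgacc

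Over all start windows there were 51 matches in 45 members, which all began before the start, at a median of 88 bases upstream (−88). They came from 47 distinct sites. One site lay before both ZNF790 and ZNF345 and another before both ZNF829 and ZNF568, and those of ZNF112 and ZNF875 each lay in 2 windows of the gene. Of the distinct sites, 28 were in the orientation of the gene, 17 in the opposite one, and the 2 between neighbours in both. Of the 48 start windows with a match, 37 (77.1%, 63.5 to 86.7) had H3K4me3, and of the 220 without a match 131 (59.5%, 52.9 to 65.8) did. The median H3K4me3 score was 61.5 with a match and 53.4 without, and the median H3K27ac score 22.8 and 23.2. A match was more frequent at marked starts outside the members too. Over all protein-coding genes, 329 of 364 windows with a match had H3K4me3. The match was in 2.61% of their windows with H3K4me3 and 0.368% of those without. In zinc finger genes elsewhere these shares were 7.39% and 1.18%. Among members it stood at 37 of 168 starts with H3K4me3 and 11 of 100 without. Of the 45 members, 35 had H3K4me3 at a start with a match and 9 had no summit in the gene. ZNF875 had its match before unmarked starts and H3K4me3 of 71.6 at other starts. The matches followed the position of the genes: 42 of 143 long arm members with a listed start had one, against 3 of 73 on the short arm. They were found in 12 of 25 members from ZNF565 to ZNF573, 10 of 20 from ZNF575 to ZNF296 and 17 of 54 from ZNF628 to ZNF446. Only 1 of 32 from ZNF175 to ZNF331 had one, and the cluster next to the centromere and that from ZNF653 to ZNF791 had none. Neighbouring members can share sequence through duplication, so these matches are not independent cases.

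Other short motifs were counted in the same windows. CCGGAA, the core of the ETS factor site, was in 51.1% of member windows against 21.2% of all and 38.2% of those of zinc finger genes elsewhere. It stood at 86 of 168 member starts with H3K4me3 and 51 of 100 without. In all genes these shares were 29.9% and 9.53%, and in zinc finger genes elsewhere 46.3% and 18.8%. CCAAT was in 134 of 268 member windows and in 34.6% of all, at 75 of 168 member starts with H3K4me3 and at 59 of 100 without. The SP factor core GGGCGG was in 64.9% against 56.3%, the YY1 core ATGGCGG in 7.46% against 6.99%, and TATAAA, the TATA box, in 2.61% against 9.46%. Windows of zinc finger genes elsewhere held CCAAT in 39.2%, GGGCGG in 56.25%, ATGGCGG in 8.68% and TATAAA in 5.56%. In the other genes of the chromosome GGGCGG was in 65.9%, near the share of members. Their windows held CCGGAA in 21.6%, CCAAT in 35.6%, ATGGCGG in 8.20% and TATAAA in 7.11%. All were searched on both strands of the same 300 bases.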

How the data were processed

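For each mark the authors deposited the positions of peak summits, 1 bp wide, with a −log10 score of a p-value or q-value; lowest scores were 1.31 for H3K4me3, 1.30 for H3K27ac and 1.33 for H3K4me1. The tools named per the submitters' processing notes are MACS2, Bowtie, deepTools and Picard, on hg38. Versions, settings and the control used for peak calling are unknown here. Peak widths and read counts were not in the lists, so depth and its precision are unknown.

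Summits on chromosomes 1 to 22 and X were joined to RefSeq genes of GRCh38.p14 with Python 3.11.15, pandas 2.3.3 and numpy 2.4.6, and the joining was tested on simulated summits. A mark counted within 1000 bp of a gene boundary. Genes are said to share a window where their 1000 bp boundary windows overlap, so a summit of one need not lie in the window of the other. Both marks counted when at the same boundary, and shares have 95% Wilson intervals. A member's best score is its highest within the window. Percentiles are places among all marked protein-coding genes of the same list. Starts, strands and 300-base promoter windows came from the RefSeq promoter table, which held 216 of the 246 members and 15812 protein-coding genes in all. Promoter pairs were aligned with Biopython 1.88, and identity is over 300 bases. Arms were split at the largest gap between protein-coding genes.

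Genes named are the 10 members with the highest H3K4me3 score, the 5 with the highest H3K27ac score, the 5 leading each single-mark state, all with H3K4me1 at a boundary, the 5 with most summits, the 3 nearest each side of the window, the highest and the foremost unmarked gene of each stretch, and a list of known roles. Members with H3K4me1 or H3K4me3 only inside the gene, sharing pairs, CG-rich unmarked genes and promoters were chosen after their values were seen. The members and lists were chosen with earlier results of these data known. Planned counts of zinc fingers per protein were not made because protein sequences were not used here. Alternatives were other windows, a score minimum of 10, whole genes, starts only, added symbols, and members that share no window with a gene outside the set.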

Additional observations from a re-analysis of the deposited data

How the results depend on the processing

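Each mark had 1 library, so no replicate could be left out. No paired analysis was possible because the counts come from no test and each mark is 1 library. The counts of members with H3K4me3, with H3K27ac, with both marks and with no mark each stayed within 1.5 times their value under all alternatives run: windows of 500 and 2500 bp, a score of at least 10, whole genes, starts only, added zinc finger symbols, and members sharing no window with a gene of another kind. The boundary rule on members with a listed start was added after seeing the data and also left these 4 counts within 1.5 times. H3K4me3 ranged from 114 (500 bp, where 40.6% of all genes had it) to 165 (whole gene, 69.0%). H3K27ac was lowest, at 92 (37.4%), with a score of at least 10, where 46.4% of all genes had it. The count of 2 members with H3K4me1 at a boundary became 1 within 500 bp, 8 within 2500 bp and 0 with a score of at least 10. It was 11 over the whole gene, and 0 of 224 without members sharing a window with a gene outside the set. Over all genes, 7.31% had H3K4me1 within 500 bp, 24.9% within 2500 bp and 1.13% at a score of at least 10. The best H3K4me3 score of the 37 named members with one was also compared after seeing the data. Within 500 bp, 9 lost their summit (ZNF841, ZNF616, ZNF576, ZNF146, ZNF507, ZNF524, ZNF787, ZNF296 and ZNF44), ZNF580 fell from 95.2 to 43.6 and 27 stayed. Within 2500 bp, 36 stayed and ZNF846 went from 6.28 to 11.6. Over the whole gene, 34 stayed, and ZNF846 stood at 48.7, ZNF584 at 73.9 and ZNF227 at 84.0. The lists give no depth, so a member without a summit is not shown to lack the mark.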
